A study of Arabidopsis thaliana with 36 samples.

Results

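Leaf was compared with root in opt3-2, an Arabidopsis thaliana mutant line named for OPT3. The opt3-2 libraries were found by their column names in the deposited count table and made up 18 of the 36 sequencing runs used here, 9 of leaf and 9 of root. The 3 runs of each biological replicate were summed, which left 3 leaf and 3 root replicates. The other 18 runs were leaf and root of the wild type Columbia-0, with 3 biological replicates each. They served to show where the organ difference of opt3-2 departed from that of the wild type. They also entered the gene filter, the scaling and the estimate of spread behind the tests within opt3-2. Per the labels, seedlings of both genotypes spent 11 days on plates and 22 days in aerated minimal hydroponic medium under 16 hours of light and 8 hours of dark, and each RNA sample came from 3 to 4 plants ground together. Every sample is labelled as grown in replete medium, while a treatment text that all samples also carry describes 20 µM CdCl2 for 72 hours. The labels do not settle which applied, and nothing in them separates the 4 groups on this point.

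Leaves fix carbon in chloroplasts and load sugar and metals into the phloem, whereas roots take up mineral nutrients through an epidermis with root hairs and a sealed endodermis. Iron uptake in Arabidopsis roots runs by acidification, secretion of coumarins, reduction of ferric iron by FRO2 and import of ferrous iron by IRT1, under the transcription factor FIT and its partner bHLH proteins. OPT3 is a member of the oligopeptide transporter family that acts in phloem loading of iron and copper in the shoot, and mutants of it are known for strong root iron uptake despite iron-rich leaves.

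OPT3 itself was measured at 18.8, 21.0 and 18.4 CPM in leaf and 6.47, 5.49 and 4.94 CPM in root (CPM, counts relative to library size scaled with TMM factors). All 3 leaf replicates lay above all 3 root replicates (log2 fold change 1.78 ± 0.16 SE, adjusted p = 7.37e-07, edgeR's quasi-likelihood test with Benjamini-Hochberg adjustment, as for every adjusted p given here; log2 fold changes are leaf over root, so negative values are higher in root). Each SE given here is the absolute log2 value divided by the square root of the test's F statistic, and is not reported by edgeR itself. It is approximate, above all where an organ holds few reads. In Columbia-0 OPT3 stood at 128, 97.8 and 80.7 CPM in leaf and 7.70, 6.64 and 8.20 CPM in root. The leaf-over-root difference was smaller in opt3-2 (opt3-2 minus Columbia-0 on the log2 scale, -1.99 ± 0.23 SE, adjusted p = 1.71e-04), with the leaf libraries of opt3-2 below every leaf library of Columbia-0.

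The opt3-2 leaf replicates held 36705595 to 37685493 counted reads and the root replicates 27451463 to 31065807. Replicates of an organ correlated at 0.993 to 0.995 in leaf and 0.978 to 0.991 in root over all tested genes on the log2 CPM scale, against 0.553 to 0.598 between organs. Chloroplast-encoded genes took 0.1009% to 0.1539% of leaf reads and 0.0058% to 0.0107% of root reads. Summed levels of 34 light harvesting and photosystem genes were 130006 to 133802 CPM in leaf, and 915, 591 and 479 CPM in root replicates 1, 2 and 3, which is 0.693%, 0.447% and 0.362% of the leaf mean. Summed levels of 14 root hair genes were 269 to 407 CPM in root and 1.54 to 3.27 CPM in leaf, which is 0.462% to 0.984% of the root mean. The labelled organs thus carried their own markers in all 6 replicates, and root replicate 1 had the most photosystem RNA among the roots. What part of the low levels in the opposite organ came from carry-over between tissues was not tested. In whole organs, fewer cells of a type and less RNA per cell cannot be told apart. Whether the replicates were grown as separate cultures is not stated. The p-values reflect only the spread within the groups of both genotypes, over 12 replicates.

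Most of the transcriptome differed between the organs of the mutant. Of 21692 genes tested, 17091 passed at an adjusted p under 0.05 (78.8%), 8337 of them higher in leaf (38.4%) and 8754 higher in root (40.4%). Differences of at least 2-fold were found for 4833 genes on the leaf side (22.3%) and 5006 on the root side (23.1%), and of at least 8-fold for 2269 (10.5%) and 2337 (10.8%). The replicates of the organs did not overlap for 17490 genes (80.6%), with leaf above root in 39.6% and root above leaf in 41% of those tested. The near-even split depended on the scaling. With library totals alone, 5785 genes were higher in leaf and 12175 higher in root, and the median log2 fold change of all genes moved from -0.02 to -0.42. Counts of list members below are to be read beside these shares.

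**Figure D1:**
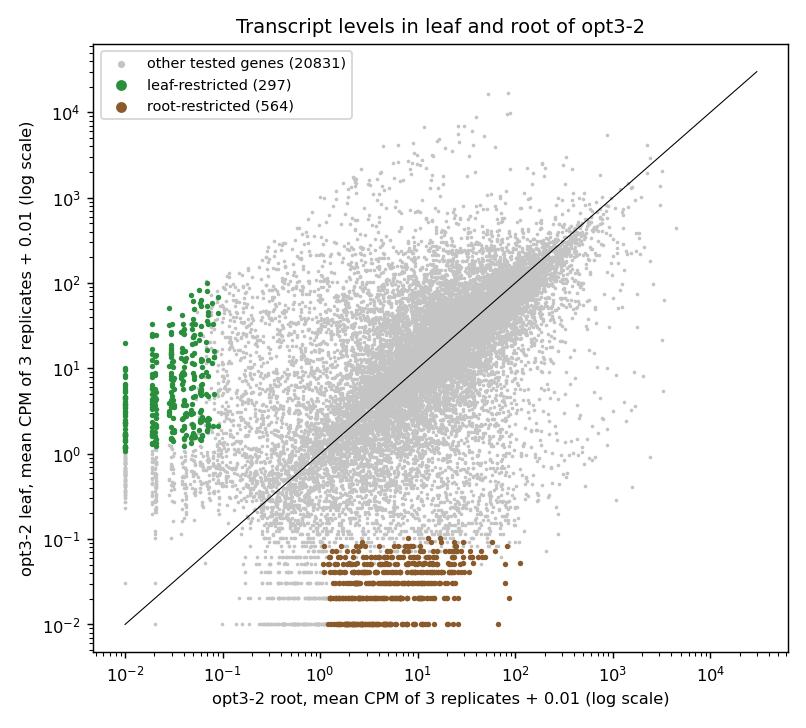
Mean transcript level of each tested gene in opt3-2 root (x axis) and leaf (y axis), in CPM with 0.01 added, on log scales; each point is a gene, the line marks equal levels, and coloured points are the 297 genes restricted to leaf and the 564 restricted to root by the level rule. Genes spread widely to both sides of the line, and the restricted genes form the left and lower edges.

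Reads were spread unevenly in leaf. The 5 genes with most reads took 5.30% of leaf reads and 1.98% of root reads in the respective organ, and the 100 with most reads took 25.3% and 15.4%. Genes at least 8-fold higher in leaf supplied 37.5% of all leaf reads, while genes at least 8-fold higher in root supplied 16.0% of root reads. In leaf the 5 were the light harvesting genes LHCB1.3, LHB1B2 and LHCA4, the rubisco activase gene RCA and the rubisco small subunit gene RBCS1A. In root they were SAM1, which makes the methyl donor S-adenosylmethionine, the beta-glucosidase gene BGLU23, the ferric reductase gene FRO2, the protease inhibitor gene DR4 and the peroxidase gene PRXR1. FRO2 is the enzyme that reduces iron at the root surface. LHCB1.3, RCA, LHB1B2, LHCA4 and BGLU23 each overlap another annotated gene on the opposite strand, and whether the counting used strand is not given here.

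Photosynthesis genes lay almost wholly on the leaf side. Each of the 34 light harvesting and photosystem genes was higher in leaf, with a median log2 fold change of 7.91 against -0.02 over all tested genes. Among Calvin cycle and photorespiration genes 22 of 23 were higher in leaf (median 8.06), and all 15 genes of chlorophyll and carotenoid synthesis were (median 4.59). LHCB1.2, a chlorophyll-binding antenna protein of photosystem II, was at 4225, 4191 and 4099 CPM in leaf and 7.37, 5.33 and 6.21 CPM in root (log2 fold change 9.37 ± 0.20 SE, adjusted p = 1.77e-12). The organs were separated by more than 2 orders of magnitude in every replicate, although reads of the near-identical LHCB1 copies can be divided between them by the counting. PSBO2, a subunit of the oxygen-evolving complex, was at 1667, 1661 and 1588 CPM in leaf and 4.66, 3.50 and 3.34 CPM in root (log2 fold change 8.73 ± 0.18 SE, adjusted p = 1.34e-12). RBCS1B, a rubisco small subunit, was at 1053, 1078 and 959 CPM in leaf and 1.38, 0.610 and 0.989 CPM in root (log2 fold change 9.99 ± 0.29 SE, adjusted p = 1.68e-11). In both, root levels were a trace of the leaf levels and highest in root replicate 1, the root library with most photosystem RNA.

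Within carbon metabolism the fold changes were graded. SBPASE, the sedoheptulose bisphosphatase of the Calvin cycle, was at 829, 817 and 769.8 CPM in leaf and 1.81, 1.16 and 1.11 CPM in root (log2 fold change 9.19 ± 0.24 SE, adjusted p = 6.76e-12). PGLP1, which starts photorespiration by dephosphorylating phosphoglycolate, was at 187, 194 and 185 CPM in leaf and 0.298, 0.128 and 0.309 CPM in root (log2 fold change 9.54 ± 0.18 SE, adjusted p = 9.54e-13). The mitochondrial serine hydroxymethyltransferase gene SHM1 was at 2158, 2192 and 2157 CPM in leaf and 85.0, 95.8 and 87.1 CPM in root (log2 fold change 4.60 ± 0.10 SE, adjusted p = 1.88e-12), so its root libraries held a larger share of the leaf level. The smallest leaf-sided change of the list was that of GLDT, a subunit of glycine decarboxylase, at 2.43. GLYK, the glycerate kinase that closes the photorespiratory cycle, was the exception of its list, at 221, 214 and 208 CPM in leaf and 461, 439 and 718 CPM in root (log2 fold change -1.33 ± 0.19 SE, adjusted p = 4.21e-05). Every root replicate lay above every leaf replicate, and root replicate 3 was the highest.

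In pigment synthesis GUN5, the large subunit of magnesium chelatase, had the largest fold change of its list, at 3515, 3626 and 3414 CPM in leaf and 26.1, 19.9 and 21.8 CPM in root (log2 fold change 7.28 ± 0.17 SE, adjusted p = 3.24e-12). CRD1, an enzyme of the chlorophyll ring, and CAO, which makes chlorophyll b, had log2 fold changes of 6.63 and 5.54, and both overlap another gene. The protochlorophyllide oxidoreductase genes PORA, PORB and PORC stood at 5.47, 5.26 and 5.44, of which PORB and PORC overlap a gene on the opposite strand. The 3 oxidoreductase genes thus had fold changes close to each other, although PORB was at 5.91 without root replicate 1.

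**Figure D2:**
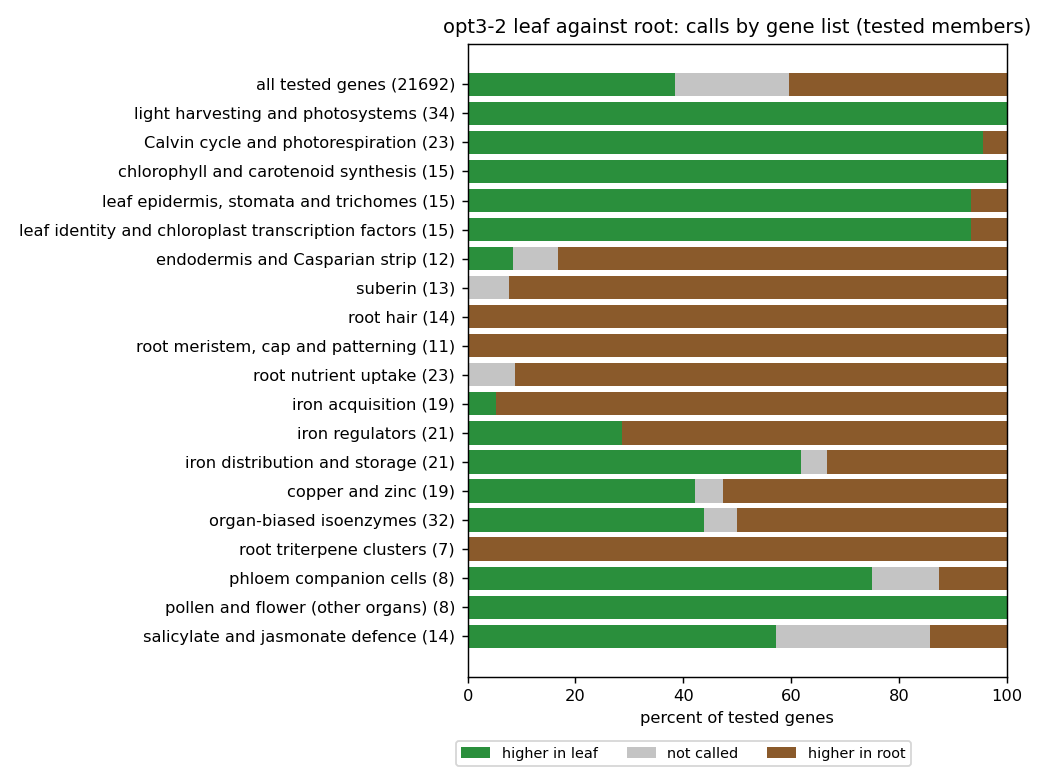
Percent of the tested members of each gene list (number tested in parentheses) that were higher in leaf, not called or higher in root at an adjusted p under 0.05 in opt3-2, with all 21692 tested genes as the top bar (38.4% higher in leaf, 40.4% higher in root). The 34 photosystem genes were all higher in leaf, and the 14 root hair and 11 root meristem genes were all higher in root.

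Promoters of 3 of these leaf genes and of 2 root genes are printed to show the short elements for which light-regulated leaf genes are known, the G-box (CACGTG) and the I-box (GATAAG, or its reverse complement CTTATC), which are in capitals. Each line gives the 250 bases before the annotated gene start from RefSeq on TAIR10.1, 5′ to 3′ on the gene's strand. The genes were picked after their motifs were seen, with IRT1 as a root gene that holds neither.
RBCS2B, chr5:15382072-15382321 (-): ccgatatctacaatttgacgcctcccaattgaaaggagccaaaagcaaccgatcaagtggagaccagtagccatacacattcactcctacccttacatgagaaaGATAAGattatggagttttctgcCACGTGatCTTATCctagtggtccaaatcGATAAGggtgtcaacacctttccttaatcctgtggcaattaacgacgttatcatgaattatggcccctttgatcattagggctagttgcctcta
PSBQ2, chr4:2673244-2673493 (-): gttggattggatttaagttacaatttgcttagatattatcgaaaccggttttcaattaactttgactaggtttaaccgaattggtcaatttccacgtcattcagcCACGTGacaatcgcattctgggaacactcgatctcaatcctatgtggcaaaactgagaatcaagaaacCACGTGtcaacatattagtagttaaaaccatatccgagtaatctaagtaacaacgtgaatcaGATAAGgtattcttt
LHCA4, chr3:17495034-17495283 (-): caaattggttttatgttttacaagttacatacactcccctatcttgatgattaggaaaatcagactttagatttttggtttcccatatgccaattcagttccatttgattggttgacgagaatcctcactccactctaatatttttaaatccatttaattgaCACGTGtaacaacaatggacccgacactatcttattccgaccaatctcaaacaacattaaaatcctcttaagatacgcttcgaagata
MTP8, chr3:21499944-21500193 (-): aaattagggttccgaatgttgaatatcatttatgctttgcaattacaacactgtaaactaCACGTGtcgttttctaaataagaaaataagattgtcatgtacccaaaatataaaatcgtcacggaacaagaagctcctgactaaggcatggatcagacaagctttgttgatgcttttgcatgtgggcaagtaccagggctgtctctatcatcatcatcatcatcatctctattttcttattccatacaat
IRT1, chr4:10707094-10707343 (+): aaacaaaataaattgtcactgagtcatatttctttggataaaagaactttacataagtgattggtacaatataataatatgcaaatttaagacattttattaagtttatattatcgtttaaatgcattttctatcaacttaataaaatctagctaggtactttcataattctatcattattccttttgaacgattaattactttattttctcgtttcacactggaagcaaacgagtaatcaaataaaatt
RBCS2B, a rubisco small subunit gene, was at 1725, 1786 and 1711 CPM in leaf and 2.65, 1.57 and 2.19 CPM in root. Its window holds a G-box between I-boxes, which start 146, 115 and 94 bases before the gene, and that of PSBQ2, a subunit of the oxygen-evolving complex at 2583, 2716 and 2648 CPM in leaf and 8.83, 5.17 and 4.79 CPM in root, holds G-boxes at 145 and 77 bases and an I-box at 15 bases. LHCA4, an antenna protein of photosystem I, has a G-box 88 bases before its start, and MTP8, a manganese and iron transporter of the vacuole that is higher in root, has one 190 bases before its start.

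Over windows from 250 bases before to 50 after the start, both strands searched, the G-box was present in 8.53% of 21533 tested genes and the I-box in 14.7%. The photosystem list held them in 10 of 34 windows (29.4%) and 19 of 34 (55.9%), and the Calvin cycle list in 5 of 23 (21.7%) and 7 of 23 (30.4%). Among genes restricted to leaf the shares were 8.93% and 18.2% of 291 windows, near those of all tested genes, and among genes restricted to root 5.50% and 13.1% of 564. Among the 19 iron acquisition genes 1 window held a G-box (5.26%) and 3 an I-box (15.8%). A match of letters describes the sequence and is not a measured binding site.

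Regulators of leaf form and of chloroplasts followed the same side. Of 15 transcription factor genes of leaf identity and chloroplast development 14 were higher in leaf (median 4.17). YAB1, a YABBY factor of the lower leaf face, was at 33.4, 34.6 and 30.3 CPM in leaf and 0.0271, 0 and 0 CPM in root. With 1 read over the 3 root replicates, its ratio of leaf to root was 3290.4 (591 to 129962), where the range in parentheses is a 95% exact Poisson interval that covers counting error only. YAB3, of the same family, was at 25.3, 26.9 and 22.7 CPM in leaf and 0.0271, 0 and 0 CPM in root, a ratio of 2511 (451 to 99165). Neither gene reached 0.03 CPM in any root replicate. CGA1 and YAB5, of the GATA and YABBY families, had ratios of 953 (264 to 7871) and 724 (200.4 to 5976) on 2 root reads each. GNC, a GATA factor of greening, was at 54.9, 50.1 and 43.8 CPM in leaf and 0.0271, 0.0642 and 0.0309 CPM in root (log2 fold change 10.14 ± 0.24 SE, adjusted p = 3.36e-12), and GLK1, an activator of photosystem genes, at 338, 365 and 362 CPM in leaf and 0.677, 0.706 and 0.803 CPM in root (log2 fold change 8.92 ± 0.17 SE, adjusted p = 9.34e-13). PHB, which specifies the upper leaf face and also patterns the root vasculature, was the member higher in root, at 56.3, 60.8 and 53.8 CPM in leaf and 83.5, 86.4 and 80.6 CPM in root (log2 fold change -0.55 ± 0.07 SE, adjusted p = 1.61e-05).

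Genes of the leaf surface were likewise leaf-sided, 14 of 15 (median 5.79). FAMA, the factor that completes guard cell fate, was at 30.1, 29.2 and 28.7 CPM in leaf and 0.0271, 0.0321 and 0.154 CPM in root (log2 fold change 8.63 ± 0.22 SE, adjusted p = 5.43e-12). MUTE, the factor of the guard mother cell step, was at 0.768, 0.659 and 0.566 CPM in leaf and at 0 reads in every root replicate, which makes it at least 22.2-fold higher in leaf against a floor of 3 reads over the root group. CER1, an enzyme of wax alkane synthesis, was at 94.2, 96.6 and 69.4 CPM in leaf and 0.379, 0.417 and 0.433 CPM in root (log2 fold change 7.72 ± 0.19 SE, adjusted p = 4.92e-12). None of these overlapped between organs, and without root replicate 3 the log2 fold change of FAMA was 9.77. GL3, which acts in both trichome and root hair patterning, was higher in root at 0.768, 0.439 and 0.378 CPM in leaf and 3.17, 3.44 and 2.66 CPM in root (log2 fold change -2.53 ± 0.26 SE, adjusted p = 1.97e-06).

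Genes of root barriers and root hairs lay on the root side. Of 12 endodermis and Casparian strip genes 10 were higher in root and 1 in leaf (median -7.09), of 13 suberin genes 12 were higher in root (median -6.13), and all 14 root hair genes were (median -7.43). CASP1, a scaffold protein of the Casparian strip, was at 54.5, 76.2 and 80.5 CPM in root and 0.154, 0 and 0.157 CPM in leaf (log2 fold change -9.35 ± 0.36 SE, adjusted p = 1.69e-10). It lay far above the leaf in every root replicate, although it overlaps a gene on the opposite strand. SCR, the GRAS factor that specifies the endodermis and is also expressed in leaf bundle sheath, was the member higher in leaf, at 35.3, 36.4 and 36.2 CPM in leaf and 22.1, 27.1 and 28.4 CPM in root (log2 fold change 0.48 ± 0.08 SE, adjusted p = 1.86e-04). That call was lost with library totals alone, where the log2 fold change was 0.09. MYB36, the factor that switches on Casparian strip genes, was at 10.0999, 12.5 and 17.3 CPM in root and 0.0614, 0 and 0.0315 CPM in leaf, a ratio of 426 (146 to 2068) on 3 leaf reads. ESB1, a dirigent protein of the strip, did not pass, with values from 0.283 to 0.596 CPM in leaf and 0.257 to 0.433 CPM in root, and it shares its locus with an antisense gene.

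In suberin synthesis, CYP86A1, the hydroxylase of root suberin fatty acids, was at 56.2, 60.9 and 56.8 CPM in root and 0.184, 0.157 and 0.252 CPM in leaf (log2 fold change -8.17 ± 0.27 SE, adjusted p = 4.61e-11). FAR4, a reductase that makes suberin alcohols, was at 42.0, 49.1 and 38.7 CPM in root and 0.215, 0.0941 and 0.252 CPM in leaf (log2 fold change -7.82 ± 0.25 SE, adjusted p = 3.04e-11). The organ difference of CYP86A1 was larger than in Columbia-0 (-2.19 ± 0.43 SE, adjusted p = 0.00515). So was that of ABCG6 (-1.18 ± 0.30 SE, adjusted p = 0.0192), a suberin transporter at 22.9, 28.5 and 26.9 CPM in root and 0.215, 0.282 and 0.157 CPM in leaf. The ABCG6 call was lost without opt3-2 leaf replicate 3 (-1.05) or Columbia-0 leaf replicate 2 (-1.11). Summed over replicates, CYP86A1 had 19 leaf reads in opt3-2 and 74 in Columbia-0, beside 5812 and 6891 root reads. ABCG6 had 21 and 42 leaf reads, beside 2601 and 3276 root reads. Both differences thus rested on few leaf reads, and neither gene had more root reads in opt3-2. KCS20, an elongase that also serves leaf wax, did not pass, at 118, 126 and 129 CPM in leaf and 98.6, 118 and 121 CPM in root (log2 fold change 0.14 ± 0.09 SE, adjusted p = 0.148), and its organs overlapped.

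Among root hair genes, RHS19, a root hair peroxidase that overlaps another gene on the opposite strand, was at 72.6, 72.7 and 93.1 CPM in root and 0.154, 0.126 and 0.189 CPM in leaf (log2 fold change -8.96 ± 0.18 SE, adjusted p = 1.46e-12). RSL4, the factor that sets root hair length, was at 9.67, 11.3 and 11.3 CPM in root and 0, 0 and 0.0629 CPM in leaf, a ratio of root to leaf of 518 (143 to 4277) on 2 leaf reads. LRX1, an extensin-like protein of the hair wall, was at 24.8, 36.3 and 49.96 CPM in root and 0.0614, 0 and 0.220 CPM in leaf (log2 fold change -8.57 ± 0.43 SE, adjusted p = 2.29e-09). EXPA7 and EXPA18, expansins of root hairs, lay on the same side, EXPA7 at 18.5, 22.5 and 25.7 CPM in root and EXPA18 at 9.23, 12.04 and 14.3 CPM. In each of the 5 the 3 leaf replicates stayed under 1 CPM. Without leaf replicate 3 the log2 fold change of LRX1 was -10.02.

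All 11 genes of the root meristem, cap and its patterning were higher in root (median -6.57), and 4 of them had no read in any leaf replicate. SMB, a factor of root cap maturation, was at 5.50, 6.04 and 6.15 CPM in root, at least 189-fold higher against the floor of 3 leaf reads. PLT2, which maintains the root stem cell niche, was at 3.01, 2.47 and 2.81 CPM, at least 88.6-fold higher. BRN1 and FEZ, further root cap factors, were at least 66.6-fold and at least 33.6-fold higher in root. PIN2, the auxin exporter of the root tip epidermis, was at 54.5, 57.9 and 57.0 CPM in root and 0.338, 0.188 and 0.409 CPM in leaf (log2 fold change -7.48 ± 0.18 SE, adjusted p = 4.09e-12). AUX1, an auxin importer that is also active in shoots, differed least, at 111, 116 and 109 CPM in leaf and 167, 172 and 191 CPM in root (log2 fold change -0.66 ± 0.06 SE, adjusted p = 1.02e-06). The 7 tested genes of the root triterpene clusters, which make thalianol, marneral and arabidiol derivatives, were also all higher in root. PEN1, the arabidiol synthase, was at 37.2, 33.0 and 38.7 CPM in root and 0.184, 0.126 and 0.126 CPM in leaf (log2 fold change -7.92 ± 0.15 SE, adjusted p = 9.54e-13).

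Uptake of the major nutrients was root-sided for 21 of 23 tested transporters and partner genes (median -4.90). PHT1;1, the main phosphate importer, was at 453, 463 and 539.8 CPM in root and 1.11, 0.628 and 1.42 CPM in leaf (log2 fold change -8.85 ± 0.25 SE, adjusted p = 1.22e-11). NRT2.1, the high-affinity nitrate importer, was at 721, 846 and 764 CPM in root and 2.03, 1.73 and 3.996 CPM in leaf (log2 fold change -8.23 ± 0.28 SE, adjusted p = 6.21e-11). SULTR1;2, the main sulfate importer, was at 268, 302 and 344 CPM in root and 33.7, 31.1 and 29.5 CPM in leaf (log2 fold change -3.28 ± 0.12 SE, adjusted p = 1.36e-10). None of the 3 overlapped between organs. HAK5, a potassium importer, was at 4.60, 5.27 and 6.70 CPM in root on 3 leaf reads, a ratio of 177 (60.6 to 859). BOR1, a boron exporter, at log2 0.20 (adjusted p = 0.0812), and SOS1, a sodium exporter, at -0.17 (adjusted p = 0.170), did not pass, and AMT1;5 had too few reads to be tested. BOR1 passed, leaf-sided, without leaf replicate 3 (0.28) or root replicate 3 (0.31), and SOS1 passed without root replicate 1 (-0.30).

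Some of these transporters had another organ difference than in Columbia-0. The difference between the genotypes' organ effects was called for 3503 of 21692 genes (16.1%), 1834 shifted to the leaf side in opt3-2 (8.45%) and 1669 to the root side (7.69%). In the column names the run columns are numbered 1 to 3 for all opt3-2 replicates. They are numbered 2 to 4 for 3 Columbia-0 replicates (leaf 1 and 2, root 3) and 5 to 7 for the other 3. What these numbers stand for is not stated. If they mark sequencing batches, batch and genotype are partly confounded, and the part of batches in these differences was not tested. All differences between genotypes below are opt3-2 minus Columbia-0 on the log2 scale. SULTR1;2 was less root-sided in opt3-2 (2.04 ± 0.16 SE, adjusted p = 1.57e-05), with root levels of 605, 522 and 533 CPM in Columbia-0. NRT1.1, a nitrate transporter and sensor, and NRT3.1, the partner protein of NRT2.1, were less root-sided as well (1.68 ± 0.18 SE, adjusted p = 1.16e-04, and 2.096 ± 0.18 SE, adjusted p = 2.89e-05). AMT1;3, an ammonium importer, moved the same way (1.26 ± 0.29 SE, adjusted p = 0.0140), a call that was lost without Columbia-0 leaf replicate 2 (1.12) or 3 (1.06). NRT1.8, which removes nitrate from the xylem, moved the other way, at 93.7, 119 and 148 CPM in root and 1.41, 1.07 and 1.26 CPM in leaf in opt3-2 (-6.79 ± 0.44 SE, adjusted p = 5.39e-06). Its root levels in Columbia-0 were 2.60, 3.24 and 2.09 CPM, so the mutant roots lay above every other library, and the gene overlaps CPL1 on the opposite strand.

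Iron acquisition was the list with the most negative median. Of its 19 genes 18 were higher in root and 1 in leaf, with a median log2 fold change of -9.15, beside -3.27 for the same genes in Columbia-0. The summed level of the list was 12457, 16887 and 19962 CPM in root replicates 1, 2 and 3, and 408, 411 and 422 CPM in leaf. Root replicate 1 was the lowest of the 3 roots and still far above the leaves. In Columbia-0 the list summed to 2089 to 2249 CPM in root and 293 to 334 CPM in leaf. The organ difference differed between genotypes for 14 of the 19 genes, against 16.1% of all tested genes, and in each of the 14 it lay more on the root side in opt3-2.

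IRT1, the root importer of ferrous iron, was at 1964, 2448 and 2886 CPM in root and 0.891, 0.941 and 0.912 CPM in leaf (log2 fold change -11.37 ± 0.36 SE, adjusted p = 3.02e-11). FRO2, the ferric reductase, was at 2381, 3441 and 4066 CPM in root and 6.05, 5.62 and 4.75 CPM in leaf (log2 fold change -9.23 ± 0.28 SE, adjusted p = 2.60e-11). FRD3, which loads citrate into the xylem for iron transport, was at 144, 171 and 189.8 CPM in root and 0.492, 0.816 and 1.13 CPM in leaf (log2 fold change -7.69 ± 0.26 SE, adjusted p = 5.75e-11). In all 3 the lowest root replicate exceeded the highest leaf replicate more than 100-fold. The organ difference of IRT1 was larger in opt3-2 than in Columbia-0 (-5.78 ± 0.49 SE, adjusted p = 2.21e-05), as were those of FRO2 (-5.69 ± 0.32 SE, adjusted p = 1.79e-06) and FRD3 (-5.16 ± 0.42 SE, adjusted p = 1.88e-05). Leaf levels of FRO2 in Columbia-0 were 5.49, 4.81 and 4.46 CPM, within the range of the mutant leaves or just below it, while its root levels were 54.5, 72.1 and 45.3 CPM.

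**Figure D3:**
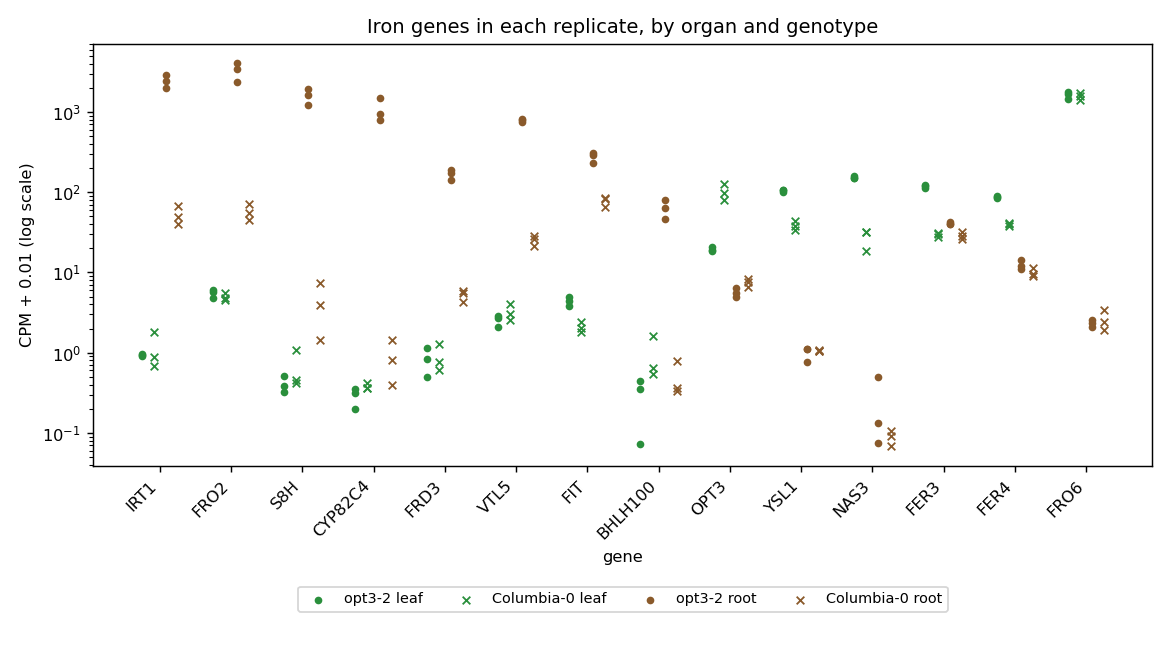
Level of 14 iron genes in every replicate (CPM with 0.01 added, log scale), green for leaf and brown for root, filled circles for opt3-2 and crosses for Columbia-0. IRT1, FRO2, S8H and CYP82C4 reach 800.1 CPM or more in every opt3-2 root replicate and stay under 7 CPM in every opt3-2 leaf replicate, while NAS3, YSL1 and FRO6 are high in leaf.

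Coumarin genes had some of the widest organ gaps. S8H, which makes fraxetin, was at 1212, 1622 and 1910.2 CPM in root and 0.369, 0.314 and 0.503 CPM in leaf (log2 fold change -11.95 ± 0.62 SE, adjusted p = 2.81e-09). CYP82C4, which makes sideretin from it, was at 800.1, 941 and 1496 CPM in root and 0.307, 0.188 and 0.346 CPM in leaf (log2 fold change -11.89 ± 0.44 SE, adjusted p = 1.17e-10). F6H1, the enzyme that commits to scopoletin, was at 1531, 2196 and 2426 CPM in root and 6.42, 6.31 and 11.8 CPM in leaf (log2 fold change -7.97 ± 0.33 SE, adjusted p = 3.64e-10), with PUT4 on the opposite strand. Root levels were lowest in replicate 1 and highest in replicate 3 for all 3, with no overlap between organs. In Columbia-0 the root levels of CYP82C4 were 1.45, 0.803 and 0.386 CPM, and its log2 organ difference there was -1.23, with a called difference between the genotypes (-10.66 ± 1.02 SE, adjusted p = 5.35e-05). ABCG37, the coumarin exporter, was at 870.5, 1464 and 1780.0 CPM in root and 2.21, 2.26 and 2.77 CPM in leaf (log2 fold change -9.15 ± 0.29 SE, adjusted p = 2.99e-11). Its organ difference was also larger in opt3-2 (-3.96 ± 0.32 SE, adjusted p = 1.86e-05).

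Several acquisition genes were at or near 0 in the mutant leaf. IRT2, a relative of IRT1, was at 41.9, 68.5 and 87.0 CPM in root with 0 reads in all leaf replicates, at least 2110.4-fold higher against the floor. MYB72, a factor of coumarin secretion, was at 8.10, 23.2 and 13.1 CPM in root with 0 leaf reads, at least 474-fold higher, although it overlaps a gene on the opposite strand. MTP8 was at 10.7, 19.8 and 14.2 CPM in root on 2 leaf reads, a ratio of 717 (199 to 5925). No leaf library reached 0.07 CPM for any of the 3. For none of them was the difference from Columbia-0 called, with adjusted p from 0.0932 to 0.284. That test compares organ differences, which are poorly fixed with so few leaf reads, so it does not show equal root levels. The root mean of MYB72 in Columbia-0 was 0.0996 CPM, below every opt3-2 root replicate.

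The nicotianamine synthases, whose product chelates iron for transport, were split between the organs. NAS2 was at 245, 220.0 and 363 CPM in root and 0.154, 0.0628 and 0.0944 CPM in leaf (log2 fold change -11.32 ± 0.34 SE, adjusted p = 1.97e-11), and NAS1 at 943, 1098 and 1382 CPM in root and 51.3, 51.3 and 50.6 CPM in leaf (log2 fold change -4.48 ± 0.21 SE, adjusted p = 1.16e-09). NAS4 was the leaf-sided member of the acquisition list, at 25.7, 27.8 and 24.9 CPM in leaf and 2.84, 2.31 and 1.76 CPM in root (log2 fold change 3.50 ± 0.22 SE, adjusted p = 1.71e-08). NAS3 was at 151, 161 and 149 CPM in leaf and 0.487, 0.0642 and 0.124 CPM in root (log2 fold change 9.31 ± 0.37 SE, adjusted p = 2.23e-10). Without root replicate 1, which held most of the root reads of NAS3, its log2 fold change was 10.61. NAS1 and NAS2 were thus higher in root and NAS3 and NAS4 in leaf, with no overlap in any of the 4. In Columbia-0 the log2 organ difference of NAS1 was -0.19 (difference between genotypes -4.29 ± 0.27 SE, adjusted p = 4.49e-06).

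Iron regulators were mostly root-sided, 15 of 21, with 6 higher in leaf (median -3.79). FIT, the master bHLH factor of uptake, was at 229, 312 and 289.9 CPM in root and 4.42, 3.80 and 4.88 CPM in leaf (log2 fold change -5.99 ± 0.17 SE, adjusted p = 1.22e-11). Its partners BHLH38, BHLH39 and BHLH100 were low in leaf and high in root. BHLH39 was at 78.9, 101 and 66.4 CPM in root and 0.246, 0.251 and 0.283 CPM in leaf (log2 fold change -8.28 ± 0.35 SE, adjusted p = 4.42e-10) and BHLH100 at 46.7, 79.7 and 63.1 CPM in root and 0.338, 0.439 and 0.0629 CPM in leaf (log2 fold change -7.79 ± 0.45 SE, adjusted p = 8.61e-09). For BHLH100 the organ difference was 0.86 in Columbia-0, whose root replicates stood at 0.318, 0.776 and 0.354 CPM, and the difference between genotypes was called (-8.65 ± 0.78 SE, adjusted p = 3.63e-05). BHLH38, which overlaps another gene on the opposite strand, was at 59.8, 87.3 and 45.5 CPM in root and 0.307, 0.596 and 0.346 CPM in leaf (log2 fold change -7.26 ± 0.48 SE, adjusted p = 3.29e-08). BTSL1, a ubiquitin ligase that limits FIT, was at 385, 647 and 688 CPM in root and 0.676, 1.22 and 0.755 CPM in leaf (log2 fold change -9.33 ± 0.36 SE, adjusted p = 1.96e-10), also with a gene on the opposite strand.

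The leaf side of the regulators held 3 genes of small peptides. IMA1, IMA2 and IMA3 encode short peptides that promote the iron deficiency response. IMA1 was at 2.46, 3.201 and 2.23 CPM in leaf and 1.33, 1.57 and 0.556 CPM in root (log2 fold change 1.19 ± 0.39 SE, adjusted p = 0.0152), a call that was lost without leaf replicate 2 (1.04, adjusted p = 0.0555) and with library totals alone (0.78). IMA2 was at 4.33, 4.77 and 4.28 CPM in leaf and 1.81, 2.41 and 0.525 CPM in root (log2 fold change 1.49 ± 0.41 SE, adjusted p = 0.00575), and IMA3, which overlaps 2 genes on the opposite strand, at 4.64, 5.12 and 3.90 CPM in leaf and 0.514, 0.674 and 0.556 CPM in root (log2 fold change 2.97 ± 0.41 SE, adjusted p = 2.98e-05). The IMA2 organ difference was smaller than in Columbia-0 (-3.11 ± 0.96 SE, adjusted p = 0.0479), a call that was lost in 10 of 12 fits that left out 1 library. BTS, a ubiquitin ligase that restrains the response, was at 126, 131 and 116 CPM in leaf and 73.7, 86.0 and 94.6 CPM in root (log2 fold change 0.55 ± 0.10 SE, adjusted p = 2.64e-04), and BHLH34, a factor upstream of the partner bHLH genes, at 10.2, 10.14 and 10.5 CPM in leaf and 6.93, 6.49 and 7.01 CPM in root (log2 fold change 0.59 ± 0.09 SE, adjusted p = 4.15e-05). The calls of BTS and BHLH34 were lost with library totals alone (0.16 and 0.20). PYE, a repressor of iron distribution genes, was root-sided at 19.1, 20.8 and 26.7 CPM in root and 7.25, 10.4 and 8.90 CPM in leaf (log2 fold change -1.33 ± 0.20 SE, adjusted p = 7.49e-05).

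Genes that move and store iron inside the plant were divided, 13 of 21 higher in leaf and 7 in root (median 1.54). FRO6, a ferric reductase of leaf plasma membranes, was at 1755, 1674 and 1473 CPM in leaf and 2.55, 2.31 and 2.07 CPM in root (log2 fold change 9.46 ± 0.22 SE, adjusted p = 3.45e-12), and FRO7, its chloroplast counterpart, at 753, 693 and 601 CPM in leaf and 1.06, 0.514 and 0.865 CPM in root (log2 fold change 9.69 ± 0.24 SE, adjusted p = 4.86e-12). YSL1, which moves iron-nicotianamine in leaf veins, was at 108, 102 and 105 CPM in leaf and 0.758, 1.09 and 1.11 CPM in root (log2 fold change 6.74 ± 0.14 SE, adjusted p = 1.67e-12). FRO2 had the opposite pattern, so different ferric reductase genes were high in leaf and in root. The ferritin genes FER3 and FER4, for plastid iron storage, were both leaf-sided, FER3 at 114, 120.4 and 121 CPM in leaf and 40.02, 39.9 and 42.1 CPM in root (log2 fold change 1.54 ± 0.08 SE, adjusted p = 1.79e-09) and FER4 at 85.5, 86.0 and 90.8 CPM in leaf and 14.4, 12.04 and 10.9 CPM in root (log2 fold change 2.81 ± 0.11 SE, adjusted p = 1.97e-10). FER3 and FER4 were more leaf-sided than in Columbia-0 (1.51 ± 0.11 SE, adjusted p = 7.50e-06, and 0.80 ± 0.15 SE, adjusted p = 0.00393). FER1 was not tested, with 1 read over the 6 opt3-2 libraries, and an antisense gene overlaps it. FER4 overlaps another gene on its own strand.

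Vacuolar iron transporter-like genes went with the root. VTL5 was at 806, 809 and 746 CPM in root and 2.09, 2.73 and 2.89 CPM in leaf (log2 fold change -8.26 ± 0.19 SE, adjusted p = 3.61e-12), VTL1 at 247, 227 and 215 CPM in root and 12.7, 13.2 and 12.8 CPM in leaf (log2 fold change -4.15 ± 0.12 SE, adjusted p = 1.53e-11) and VTL2 at 169, 175 and 127 CPM in root and 32.6, 34.2 and 34.0 CPM in leaf (log2 fold change -2.23 ± 0.12 SE, adjusted p = 2.98e-09). No leaf replicate came near a root replicate in these. All 3 were more root-sided than in Columbia-0, with differences of -5.30, -2.25 and -2.26 (adjusted p = 3.06e-07, 7.50e-06 and 7.76e-06). ZIF1, a vacuolar nicotianamine transporter, did not pass between organs in opt3-2, at 42.2, 42.1 and 33.6 CPM in leaf and 46.6, 45.1 and 40.1 CPM in root (log2 fold change -0.16 ± 0.11 SE, adjusted p = 0.180). It passed, root-sided, with upper-quartile scaling (-0.36) and with library totals alone (-0.56).

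Copper and zinc genes showed no single side, with 8 of 19 higher in leaf and 10 in root. COPT6, a shoot copper importer, was at 50.5, 51.0 and 53.9 CPM in leaf and 0.325, 0.128 and 0.124 CPM in root (log2 fold change 7.999 ± 0.21 SE, adjusted p = 6.49e-12), while COPT2, a copper importer of roots, was at 44.4, 56.0 and 56.3 CPM in root and 1.97, 1.98 and 2.05 CPM in leaf (log2 fold change -4.71 ± 0.21 SE, adjusted p = 6.06e-10). COPT6 was at 8.64 without root replicate 1. ZIP3, a zinc importer, was at 54.8, 54.0 and 102 CPM in root and 0.154, 0.0941 and 0.189 CPM in leaf (log2 fold change -8.87 ± 0.36 SE, adjusted p = 2.81e-10). ZIP9 and ZIP2, of the same family, were at 19.0, 24.2 and 31.6 CPM and 19.6, 15.7 and 20.9 CPM in root and under 0.4 CPM in leaf. They differed from Columbia-0 in opposite directions, ZIP9 more root-sided (-3.12 ± 0.42 SE, adjusted p = 5.18e-04) and ZIP2 less so (3.67 ± 0.46 SE, adjusted p = 3.27e-04). HMA2 and HMA4, pumps that load zinc into the xylem, lay on opposite sides, HMA2 at 76.6, 80.8 and 71.0 CPM in leaf and 14.7, 17.02 and 14.8 CPM in root (log2 fold change 2.30 ± 0.10 SE, adjusted p = 7.88e-10) and HMA4 at 35.5, 40.3 and 39.2 CPM in leaf and 221, 245 and 229 CPM in root (log2 fold change -2.60 ± 0.08 SE, adjusted p = 2.77e-11). CSD1, the cytosolic copper/zinc superoxide dismutase, did not pass at 339, 353 and 378 CPM in leaf and 336, 398 and 383 CPM in root (log2 fold change -0.06 ± 0.08 SE, adjusted p = 0.466), and was called root-sided with upper-quartile scaling (-0.26) and library totals alone (-0.45). Its plastid counterpart CSD2 was leaf-sided at 525, 521 and 509 CPM in leaf and 107, 105 and 101 CPM in root (log2 fold change 2.31 ± 0.06 SE, adjusted p = 4.23e-12).

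A list of isoenzymes was put together from genes known for a leaf or a root form, so its counts say nothing of isoenzymes at large. Of its 32 genes 14 were higher in leaf and 16 in root, shares near those of all tested genes. Ferredoxin FD2, the electron carrier of photosynthesis, was at 1837, 1861 and 1751 CPM in leaf and 38.9, 30.7 and 26.9 CPM in root (log2 fold change 5.82 ± 0.15 SE, adjusted p = 6.51e-12), and FD3, the ferredoxin of non-green plastids, at 12.7, 10.98 and 12.6 CPM in leaf and 165, 163 and 152 CPM in root (log2 fold change -3.73 ± 0.07 SE, adjusted p = 1.34e-12). Their reductases followed, with the leaf forms FNR1 and FNR2 at log2 6.42 and 8.79 and the root forms RFNR1 and RFNR2 at -1.11 and -3.103. Each pair thus lay on opposite sides of 0. Myrosinases, which cleave glucosinolates, were split as well. TGG1 was at 1614, 1747 and 1681 CPM in leaf and 3.93, 1.32 and 1.33 CPM in root (log2 fold change 9.56 ± 0.42 SE, adjusted p = 6.16e-10), and TGG4 at 0.184, 0 and 0.0629 CPM in leaf and 94.4, 112 and 118 CPM in root (log2 fold change -10.28 ± 0.37 SE, adjusted p = 1.04e-10). TGG2 and TGG5 took the leaf and the root side in the same way, at 9.68 and -10.16. Single libraries moved these values, with TGG1 at 10.31 without root replicate 1, TGG4 at -11.56 without leaf replicate 1 and TGG5 at -11.45 without leaf replicate 3.

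Nitrogen assimilation was arranged likewise. GLU1, the ferredoxin-dependent glutamate synthase of leaves, was at 1969, 2015 and 1954 CPM in leaf and 4.47, 4.21 and 3.92 CPM in root (log2 fold change 8.88 ± 0.18 SE, adjusted p = 1.59e-12), with BHLH101 on the opposite strand of the same locus. GLU2 was at 122, 127 and 134 CPM in leaf and 191, 239.6 and 266 CPM in root (log2 fold change -0.86 ± 0.12 SE, adjusted p = 2.89e-05). GS2, the plastid glutamine synthetase, was at 1414, 1469 and 1454 CPM in leaf and 131, 149 and 162 CPM in root (log2 fold change 3.30 ± 0.09 SE, adjusted p = 1.29e-11). The cytosolic form GSR2 did not pass, at 833, 821 and 810.1 CPM in leaf and 730.2, 831 and 976 CPM in root (log2 fold change -0.04 ± 0.10 SE, adjusted p = 0.708), and its organs overlapped, whereas GSR1, GLN1.3 and GLN1;4 were root-sided at -0.93, -0.95 and -1.36. NIA2, the main leaf nitrate reductase, was at 2263, 2124 and 2259.6 CPM in leaf and 166, 187 and 258 CPM in root (log2 fold change 3.44 ± 0.20 SE, adjusted p = 1.08e-08), and NIA1 at 367, 357 and 444 CPM in leaf and 788, 768 and 975 CPM in root (log2 fold change -1.11 ± 0.12 SE, adjusted p = 3.50e-06). The organ difference of NIA1 was smaller than in Columbia-0 (1.75 ± 0.17 SE, adjusted p = 6.19e-05).

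Tetrapyrrole enzymes and proton pumps completed the pairs. FC2, the ferrochelatase of leaves, was at 107, 109.7 and 100.1 CPM in leaf and 6.82, 6.10 and 5.44 CPM in root (log2 fold change 4.11 ± 0.11 SE, adjusted p = 7.06e-12). FC1, the ferrochelatase of non-green tissue, did not pass at 61.7, 64.2 and 73.2 CPM in leaf and 61.2, 71.5 and 309.9 CPM in root (log2 fold change -1.15 ± 0.55 SE, adjusted p = 0.0742). Root replicate 3 stood apart, and the other roots overlapped the leaves. Without root replicate 3 its log2 fold change was -0.0011. Without root replicate 1 or 2 it passed, at -1.52 and -1.48, both with that library in the fit, and it overlaps 2 annotated genes. Root replicate 3 was also the highest for HEMA2, a tetrapyrrole enzyme of non-green tissue, at 24.2, 26.0 and 27.3 CPM in leaf and 33.3, 39.7 and 86.4 CPM in root (log2 fold change -1.04 ± 0.29 SE, adjusted p = 0.00644). G6PD1, a plastid glucose-6-phosphate dehydrogenase, was leaf-sided at 4.65, whereas G6PD2 and G6PD3, also of plastids, were root-sided at -1.89 and -2.101. AHA2, the proton pump that acidifies the root surface, was at 229.5, 230.4 and 243 CPM in leaf and 1349.8, 1826 and 1989.7 CPM in root (log2 fold change -2.88 ± 0.14 SE, adjusted p = 1.34e-09). AHA1 was slightly higher in leaf, at 1001, 1027 and 1015 CPM in leaf and 726, 780.5 and 833 CPM in root (log2 fold change 0.38 ± 0.08 SE, adjusted p = 6.56e-04), a direction that turned with library totals alone (-0.0126).

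**Figure D4:**
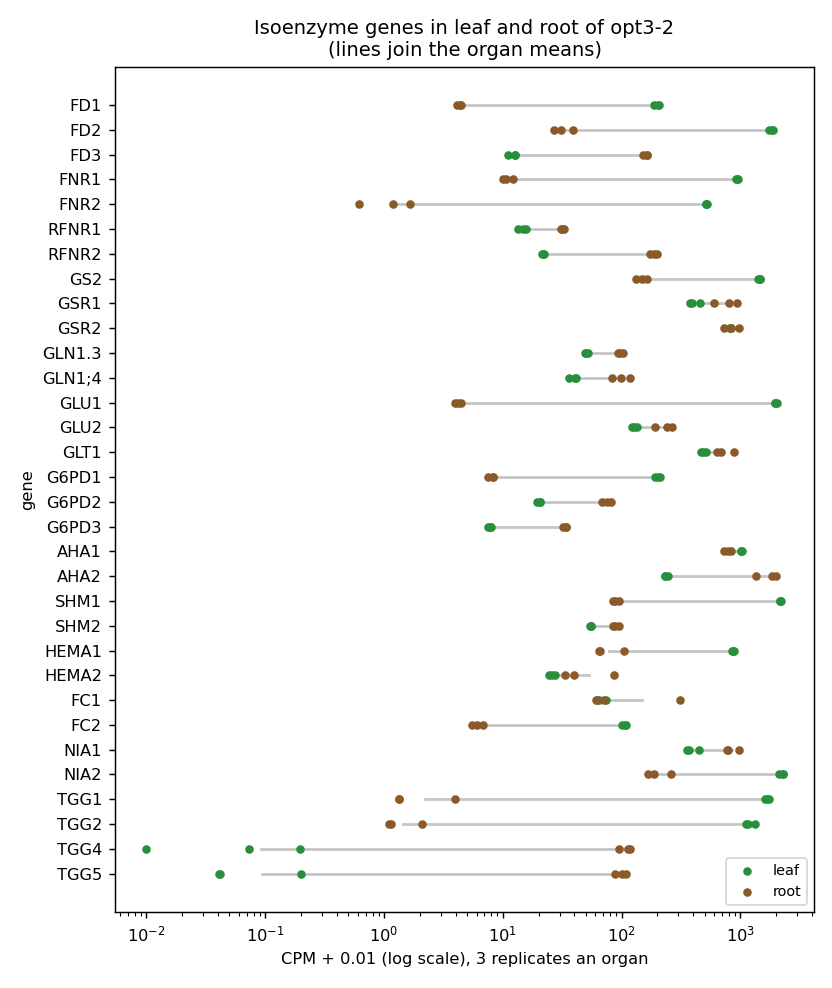
Levels of 32 isoenzyme genes in the 3 leaf (green) and 3 root (brown) replicates of opt3-2, in CPM with 0.01 added on a log scale, with a line joining the organ means. FD2 with FD3, GLU1 with GLU2 and TGG1 with TGG4 lie on opposite sides, and 1 root replicate of FC1 at 310 CPM stands apart from the other 5 libraries.

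Organ-restricted genes were defined by level, as at least 1 CPM in every replicate of one organ and at most 0.1 CPM in every replicate of the other, where 0.1 CPM is 3.11 to 3.69 reads. By this rule 297 genes were restricted to leaf (1.37% of the 21692 tested) and 564 to root (2.6%). The values chose these genes, so their gap between organs is a description and not a finding. All were weakly to moderately expressed. The fixed limit of 0.1 CPM favours this, since even a small trace of an abundant gene in the other organ exceeds it. Leaf-restricted genes had a median of 4.80 CPM in leaf and a highest level of 101 CPM, root-restricted genes a median of 4.84 CPM and a highest level of 111 CPM, and levels of at least 10 CPM were reached by 92 and 159 of them. Together they took 0.276% to 0.289% of leaf reads and 0.515% to 0.595% of root reads. Members just inside the rule had mean levels of 1.06 CPM in their organ. None of the 34 photosystem genes was restricted, while 5 of 15 leaf identity factors, 4 of 15 leaf epidermis genes, 4 of 14 root hair genes and 4 of 11 root meristem genes were.

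The most abundant leaf-restricted genes included NdhM and NdhU, subunits of the chloroplast NDH complex. NdhM was at 107, 104 and 90.6 CPM in leaf and 0.0542, 0.0642 and 0.0618 CPM in root, and NdhU at 64.6, 64.5 and 60.8 CPM in leaf and 0.0271, 0.0321 and 0.0927 CPM in root. CSLB04, a cellulose synthase-like gene, was at 75.5, 73.6 and 67.2 CPM in leaf and 0.0812, 0 and 0.0309 CPM in root. In each the root level was a few reads per library.

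Genes with the largest leaf fold were chosen among called genes, restricted or not. These had no overlap between organs and a mean log2 CPM of at least 1 over the 12 libraries. The genes chosen included AT2G17740, annotated as a cysteine/histidine-rich C1 domain protein. It was at 21.2, 19.5 and 18.1 CPM in leaf and 0 root reads, at least 656-fold higher. ZIP7, a metal transporter of the ZIP family, was at 9.19, 9.88 and 9.41 CPM in leaf and 0 root reads, at least 318-fold higher. The receptor-like kinase genes CRK38 and CRK12 also had no root read, and were at least 335-fold and at least 278-fold higher.

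The most abundant root-restricted genes were a mixed set. PAP7, a purple acid phosphatase, was at 82.0, 126 and 125 CPM in root and 0, 0.0314 and 0.0944 CPM in leaf, and AGP30, an arabinogalactan protein, at 77.5, 82.8 and 76.2 CPM in root and 0.0614, 0.0628 and 0 CPM in leaf. ZIP8, a ZIP family locus annotated as a transcribed pseudogene, was at 56.6, 97.6 and 106 CPM in root on 1 leaf read, a ratio of 8349 (1498 to 329758). IRT2 belonged to the same set. AT5G58750, annotated as a Rossmann-fold protein, was at 17.8, 18.9 and 41.8 CPM in root and 0 in leaf, at least 839-fold higher, and the leucine-rich repeat kinase gene AT1G51830 at 14.2, 17.98 and 29.6 CPM and 0, at least 660.2-fold higher. In both, root replicate 3 was the highest and the leaf had no read.

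Restricted genes shared features that the rule did not use. Of the root-restricted genes 111 of 564 lay next to another gene of that class on the chromosome (19.7%), and of other genes 3.59% lay next to one. For the leaf class these shares were 9.28% (27 genes) and 1.98%. Some families were frequent. Of 64 tested GDSL lipase genes 14.1% were leaf-restricted and 1.56% root-restricted, beside 1.37% and 2.6% of all tested genes. Root-restricted genes made up 16.0% of 25 expansin genes, which loosen cell walls, and 15.0% of 20 dirigent genes, which act in lignan and lignin chemistry. They made up 13.5% of 96 MYB factor genes and 9.23% of 65 class III peroxidase genes. In the same order, 4%, 5%, 4.17% and 3.08% of these families were leaf-restricted, also above 1.37%. AGAMOUS-like or MADS genes (10.2% of 49 leaf-restricted, 8.16% root-restricted) and cytochrome P450 genes (6.08% and 8.84% of 181) were frequent in both classes. Of 15 laccase genes 13.3% were root-restricted and 0 leaf-restricted. Of 93 homeobox genes 6.45% were leaf-restricted and 0 root-restricted. These are counts in small families and carry no test.

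Beyond the restricted classes, families leaned to one organ. All 15 tested laccase genes, whose products polymerise lignin, were higher in root (100% against 40.4% of all tested genes), as were 75.4% of class III peroxidase genes (median log2 -4.75), 76.9% of 26 aquaporin and intrinsic protein genes and 70% of dirigent genes. Ribosomal protein genes were higher in root for 63.1% of 320, but with a median of only -0.37. On the leaf side stood 57.0% of homeobox genes and 56.3% of GDSL lipase genes, beside 38.4% of all tested genes. With library totals alone these families kept their side, with 48.4% of homeobox and 53.1% of GDSL lipase genes higher in leaf. Cytochrome P450 genes were even, with 48.6% of 181 higher in leaf and 47.5% higher in root, and their median turned from 0.13 to -0.26 with library totals alone.

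Most restricted genes kept their organ in the wild type. Under the same rule 348 genes were leaf-restricted and 487 root-restricted in Columbia-0. Of these, 215 leaf-restricted genes were common to both genotypes, which is 72.4% of the opt3-2 list and 61.8% of the Columbia-0 list, and 366 root-restricted genes, which is 64.9% and 75.2%. The 82 leaf genes and 198 root genes restricted in opt3-2 alone missed a limit of the rule in Columbia-0. There, 51 and 166 of them passed 0.1 CPM in a replicate of the other organ, and 38 and 40 fell under 1 CPM in a replicate of their own. The test of the difference between genotypes was called for 6 and 18 of them. Over all restricted genes it was called for 11 of 297 leaf and 20 of 564 root genes, beside 16.1% of all tested genes. By the rule these genes hold few reads in one organ, which limits that test. The low shares therefore do not show that restricted genes differ less between genotypes.

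Among those with a called difference, AT1G60750, annotated as an NAD(P)-linked oxidoreductase, was at 21.4, 27.004 and 21.0 CPM in root and 0 in leaf, at least 742-fold higher, against 2.63, 3.13 and 2.64 CPM in the root of Columbia-0. BARS1, a triterpene synthase, was at 3.60, 7.10 and 3.34 CPM in root and 0 in leaf, against 0.897, 0.830 and 0.708 CPM in Columbia-0 root and 0.0504, 0.0445 and 0.0375 CPM in its leaf. CBL7, a calcium sensor, was at 8.53, 6.36 and 8.84 CPM in root and 0.0922, 0.0941 and 0.0944 CPM in leaf, against 14.5, 11.3 and 10.97 CPM and 0, 0 and 0 CPM in Columbia-0. BARS1 thus had about 1 read per leaf library in the wild type and none in the mutant, while CBL7 had leaf reads in the mutant alone. The call of the difference was lost for BARS1 in 10 of 12 fits that left out 1 library. COBL6, a member of the COBRA-like family of cell wall proteins, was at 6.72, 10.7 and 10.3 CPM in root and 0.0307, 0 and 0 CPM in leaf, a ratio of 889 (159.6 to 35115) on 1 leaf read, against 0.145, 0.0535 and 0.0643 CPM in Columbia-0 root. BSK10, a receptor-like cytoplasmic kinase, was at 16.7, 17.4 and 21.5 CPM in root and 0.0307, 0 and 0 CPM in leaf, against 1.97, 2.52 and 2.83 CPM in Columbia-0 root. The call was lost for COBL6 without Columbia-0 leaf replicate 3 and for BSK10 in 8 of the 12 fits. On the leaf side, AT4G39610, annotated as a MIZU-KUSSEI-like protein, was at 4.33, 3.64 and 3.15 CPM in leaf and 0.0271, 0 and 0.0618 CPM in root, against 0.353, 0.623 and 1.2003 CPM and 0.145, 0.161 and 0.322 CPM in Columbia-0.

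**Figure D5:**
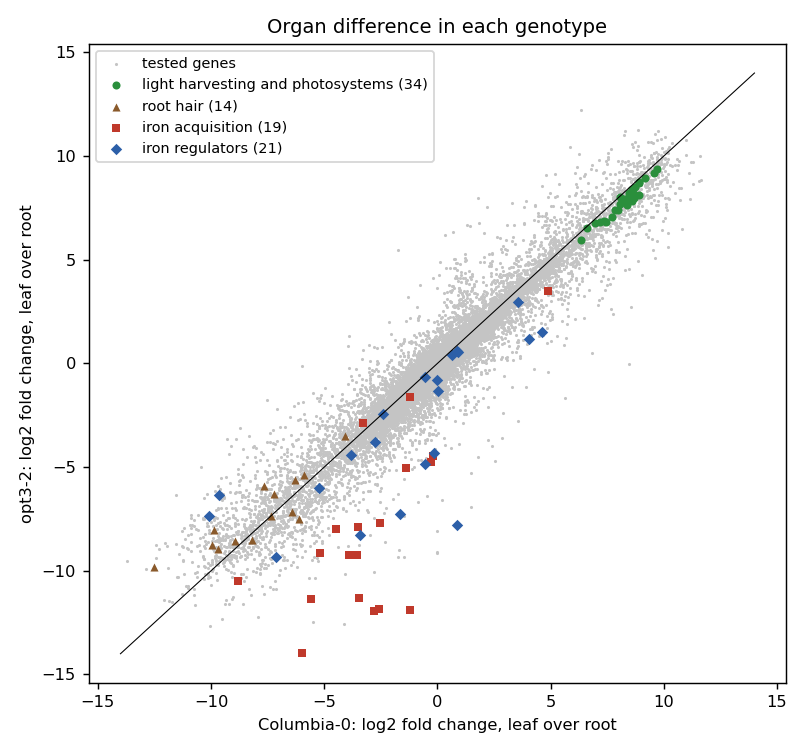
Log2 fold change of leaf over root in Columbia-0 (x axis) and in opt3-2 (y axis) for each tested gene, with the line of equal effects and 4 gene lists marked; fitted values of genes with almost no reads in an organ depend on the fit. Photosystem and root hair genes lie near the line, while most iron acquisition genes lie below it, with medians of -9.15 in opt3-2 and -3.27 in Columbia-0.

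A small set of genes took opposite sides in the genotypes. By the calls of both genotypes and the test of the difference together, 236 genes did so (1.09% of those tested). GRF11, a 14-3-3 protein that acts in the iron response, was at 17.5, 19.4 and 19.0 CPM in leaf and 79.0, 89.9 and 99.9 CPM in root (log2 fold change -2.27 ± 0.10 SE, adjusted p = 6.10e-10), while in Columbia-0 it was leaf-sided at 1.68 (difference -3.95 ± 0.14 SE, adjusted p = 1.34e-07). CYP71B5, a cytochrome P450, was at 47.2, 44.2 and 45.6 CPM in leaf and 97.9, 169 and 165 CPM in root (log2 fold change -1.65 ± 0.16 SE, adjusted p = 1.25e-06) and leaf-sided at 5.65 in Columbia-0 (difference -7.30 ± 0.27 SE, adjusted p = 1.34e-07). DUR3, the urea importer, was leaf-sided at 162, 160.3 and 164 CPM in leaf and 91.1, 86.2 and 83.8 CPM in root (log2 fold change 0.90 ± 0.12 SE, adjusted p = 1.85e-05) and root-sided at -1.60 in Columbia-0 (difference 2.50 ± 0.17 SE, adjusted p = 5.75e-06). Of the 10 genes of this kind with the lowest p for the difference, 7 were higher in root and 3 higher in leaf in opt3-2. RSW10 and AT2G05830, annotated as a ribose 5-phosphate isomerase and a NagB/RpiA-like protein, were root-sided at -1.77 and -2.09, and CHX16, a cation exchanger, was leaf-sided at 0.79.

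Phloem genes were mainly leaf-sided, 6 of 8, with 1 root-sided. SUC2, the sucrose loader of companion cells, the cell type in which OPT3 acts, was at 201, 227 and 212 CPM in leaf and 65.9, 61.7 and 60.6 CPM in root (log2 fold change 1.77 ± 0.08 SE, adjusted p = 1.23e-09), and its organ difference was smaller than in Columbia-0 (-1.13 ± 0.12 SE, adjusted p = 8.01e-05). SULTR2;1, a sulfate transporter of vascular tissue, was at 228, 240.4 and 214 CPM in leaf and 9.10, 5.78 and 3.89 CPM in root (log2 fold change 5.18 ± 0.29 SE, adjusted p = 6.36e-09). FTIP1, which moves the flowering signal into the phloem, was the root-sided member, at 13.1, 12.7 and 13.1 CPM in leaf and 30.6, 34.3 and 34.2 CPM in root (log2 fold change -1.35 ± 0.07 SE, adjusted p = 4.80e-09). SWEET11, a sucrose exporter of phloem parenchyma, was at 105, 109 and 96.5 CPM in leaf and 1.33, 1.09 and 1.98 CPM in root (log2 fold change 6.14 ± 0.45 SE, adjusted p = 7.58e-08). APL, the factor of phloem identity, did not pass at 17.2, 17.8 and 16.05 CPM in leaf and 17.6, 13.8 and 13.7 CPM in root (log2 fold change 0.18 ± 0.11 SE, adjusted p = 0.171), but was called leaf-sided without root replicate 1 (0.31).

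Defence genes were leaf-sided for 8 of 14, with 2 root-sided and 4 not called. PR1, the marker of the salicylate response, was at 279.6, 249 and 341 CPM in leaf and 0.379, 0.353 and 0.371 CPM in root (log2 fold change 9.60 ± 0.39 SE, adjusted p = 2.85e-10), and PR5 at 1037, 964 and 1824 CPM in leaf and 2.25, 2.41 and 1.11 CPM in root (log2 fold change 9.37 ± 0.38 SE, adjusted p = 3.24e-10). The leaf of PR5 and of PR2, a glucanase, was highest in replicate 3, and their organ differences were larger in opt3-2 than in Columbia-0 (2.60 ± 0.46 SE, adjusted p = 0.00323 and 2.32 ± 0.41 SE, adjusted p = 0.00327). LOX2, the plastid lipoxygenase of jasmonate synthesis, was at 946, 965 and 975 CPM in leaf and 1.35, 1.89 and 1.08 CPM in root (log2 fold change 9.38 ± 0.25 SE, adjusted p = 8.96e-12). JAZ1, a repressor of jasmonate signalling, was root-sided at 25.3, 36.5 and 43.1 CPM in leaf and 109.8, 142 and 497 CPM in root (log2 fold change -2.84 ± 0.67 SE, adjusted p = 0.00206), with root replicate 3 more than 3 times as high as either other root. Without that library its log2 fold change was -1.85. FMO1, a monooxygenase of the systemic response, was the other root-sided member, at 2.64, 2.64 and 3.93 CPM in leaf and 6.82, 6.90 and 11.2 CPM in root (log2 fold change -1.44 ± 0.32 SE, adjusted p = 0.00147). ALD1, VSP1, VSP2 and JAZ10 were not called. VSP2, a storage protein induced by jasmonate, was at 57.2, 63.6 and 38.6 CPM in leaf and 97.5, 24.7 and 16.7 CPM in root. Its root replicate 1 was above all leaf replicates while the other roots were below them, and without that library it was leaf-sided (1.36, adjusted p = 0.0163). JAZ10 was at 3.44, 3.86 and 2.86 CPM in leaf and 7.69, 0.835 and 6.70 CPM in root, with the roots on both sides of the leaves.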

How the data were processed

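Leaf and root of opt3-2 and Columbia-0 were sequenced on Illumina, in 36 runs of 12 biological replicates. The authors deposited raw counts per gene and run, and the submitters' processing notes name TopHat2, edgeR and TAIR10. No source used here names the counting program, the annotation release, the strand setting or filters. Columns were matched to samples by name, with the letter S read as leaf, and 36 columns of the deposited table were not used. The 3 run columns of a replicate were summed, since runs of one replicate differed little beyond sampling noise (chi-square over degrees of freedom 1.02 to 1.07, against 3.26 to 77.8 between replicates of a group).

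Genes were filtered with filterByExpr and tested with edgeR 4.0.16 in R 4.3.3 by the quasi-likelihood test in a 4-group model over 12 replicates, with TMM factors and Benjamini-Hochberg adjustment at 0.05. TMM factors were 0.864 to 0.866 in opt3-2 leaf and 1.09 to 1.19 in opt3-2 root. On simulated data of 21485 genes the procedure recovered 80% of 2-fold and 96% of 4-fold changes, with 3.85% false calls. Only 200 genes were changed there, up and down evenly and in opt3-2 leaf alone. Far more genes differed between the real organs, so the simulation does not give the false calls or test the scaling of that comparison. RefSeq TAIR10.1 gave names for 28009 of 28775 genes. Fold bounds use a floor of 3 reads over a group, and bounds and intervals cover counting error only, as the reads carry no molecular identifiers. At the depths reached, 1 read equals 0.0271 to 0.0321 CPM.

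The gene lists, the restricted rule and the tests were chosen with earlier results of these data known. The 217 genes named by rule are OPT3, among well-expressed genes without overlap the 10 with the highest and the 10 with the lowest fold, the 10 most abundant restricted genes an organ, the 5 with most reads an organ, up to 6 called members and up to 4 against the majority of each list, the isoenzymes, and 10 restricted and 10 opposite-direction genes that differed from Columbia-0. A further 28 list members, among them FIT, FRD3, NAS1, FER3, FER4, NRT1.8, SULTR1;2 and those named as not called, were chosen after their values were seen. One named gene is not reported here. Other scaling, filters, tools (DESeq2 1.42.0, limma 3.58.1), a replicate block, single runs and leaving out each replicate were tried. Whether equal replicate numbers pair the organs was not settled, and the main fit did not pair them.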

Additional observations from a re-analysis of the deposited data

Results flagged for a closer look

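Each value below is a difference of organ effects (leaf over root in opt3-2 minus leaf over root in Columbia-0, log2) that passed edgeR's test of the difference at an adjusted p under 0.05, as did 16.1% of all tested genes. A negative value means a more root-sided gene in opt3-2. The run numbers in the column names differ in part between the genotypes, and what they stand for is not stated. The causes of these differences were not tested. Of the 78 calls, 61 were kept whichever of the 12 libraries was left out.

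Iron acquisition genes moved to the root side, at CYP82C4 -10.66, S8H -9.15, NAS2 -7.86, IRT1 -5.78, FRO2 -5.69, FRD3 -5.16, NAS1 -4.29, ABCG37 -3.96, F6H1 -3.47 and NAS4 -1.38. Iron regulators did so too, at BHLH100 -8.65, BHLH38 -5.61, BHLH39 -4.85, IMA2 -3.11, BTSL1 -2.22, PYE -1.36 and FIT -0.76. Among genes of iron distribution and storage the values were VTL5 -5.30, VTL2 -2.26, VTL1 -2.25, OPT3 -1.99, ZIF1 -1.31 and YSL2 -0.99. Other members of that list moved to the leaf side, at YSL1 1.54, FER3 1.51 and FER4 0.80. Copper and zinc genes were divided, with ZIP9 -3.12, COPT2 -2.28 and CSD1 -1.17 on the root side and ZIP2 3.67, HMA2 0.76 and CSD2 0.43 on the leaf side. Nutrient importers of the root moved to the leaf side, at NRT3.1 2.1, SULTR1;2 2.04, NRT1.1 1.68 and AMT1;3 1.26, except NRT1.8.

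Isoenzymes moved to the leaf side at NIA1 1.75, GLU2 1.11, GSR1 0.90 and AHA1 0.81 and to the root side at SHM1 -0.76, FD2 -0.58 and FD3 -0.55. Defence genes moved to the leaf side at PDF1.2A 3.45, PR5 2.60 and PR2 2.32, and to the root side at JAZ10 -3.54 and ALD1 -3.20. Genes that were called in opposite directions in the genotypes gave CYP71B5 -7.30, AT4G17680 -6.74, GRF11 -3.95, AT2G05830 -2.77, PSF1 -2.29, RSW10 -2.21 and scpl20 -1.76 where opt3-2 was root-sided, and AT1G52800 3.45, CHX16 3.22 and DUR3 2.50 where it was leaf-sided.

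The restricted gene AT5G26260 -2.05 had over 3 reads in both organs of both genotypes. For AT1G60750 -6.97, UNE15 2.97, COBL6 -7.85, BARS1 -6.06, AT1G52130 -5.92, CBL7 5.21, AT5G64790 5.19, AT5G13900 -4.94, AT4G39610 4.92, BSK10 -4.65 and AT1G03020 -4.33, an organ of opt3-2 or of Columbia-0 held at most 3 reads, so these fitted values depend on the prior count and are no bounds. Other named genes gave SAM1 -2.41, DR4 -1.39, CYP86A1 -2.19, ABCG6 -1.18, AHA3 -0.50, SUC2 -1.13 and NRT1.8 -6.79 on the root side and BGLU23 0.78 on the leaf side.

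The calls of IMA2, DR4, YSL2 and BARS1 were lost in 10 of 12 fits that left out 1 library, those of AT5G26260 and FD2 in 9, BSK10 in 8, JAZ10 in 7, BGLU23 in 6, FIT in 5, AT1G03020 in 4, PDF1.2A in 3, and ABCG6 and AMT1;3 in 2. A single fit lost the call of BTSL1 (-1.69 without Columbia-0 leaf replicate 1), COBL6 (-4.82 without leaf replicate 3 of Columbia-0) and AT1G52130 (-2.87 without leaf replicate 2 of Columbia-0). Without root replicate 2 of Columbia-0, S8H was at -9.82 and AT4G17680 at -7.38, and without its leaf replicate 1 BHLH38 was at -4.94. PDF1.2A reached 4.18 without opt3-2 root replicate 2, and JAZ10 -4.50 without Columbia-0 root replicate 3.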

How the results depend on the processing

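With other scaling the balance of calls moved: 5785 genes were higher in leaf and 12175 in root with library totals alone (32.2% of calls in leaf, against 48.8% with TMM), and 6850 and 10490 with upper-quartile scaling (39.5%). Leaving out single replicates gave 8092 to 8413 leaf-higher and 8179 to 8775 root-higher genes, 303 to 372 leaf-restricted and 571 to 640 root-restricted genes, and 2503 to 4540 differences between genotypes. With the lowest run number alone the differences numbered 2315. The restricted rule asks for every replicate, so leaving 1 out can hardly lower its counts. Both ranges of restricted genes lay above the full counts of 297 and 564. Restricted genes numbered 46 in leaf and 117 in root with absence set at 0 reads, 606 and 972 at 0.3 CPM, and 137 and 234 with presence at 5 CPM. DESeq2 called 8221 and 8802 genes, limma voom 8446 and 8699, and the 6 opt3-2 libraries alone 7934 and 8332. A fit with the replicate number as block gave 8213 and 8490 calls and 2692 differences. Same-numbered leaf and root samples correlated at 0.084, 0.018 and 0.175. Leaf replicate 1 and root replicate 2 were at 0.134, and the other pairs at -0.154 to 0.038. With 3 replicates an organ, these values cannot decide whether equal numbers mark paired samples.

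Of the named genes, AHA1 alone turned after being called, to -0.0126 with library totals. Uncalled genes changed sign with library totals alone: KCS20 to -0.25 (then called), BOR1 to -0.19, APL to -0.22, ALD1 to -0.24 and VSP2 to -0.23. With upper-quartile scaling KCS20 went to -0.0564, APL to -0.0304, ALD1 to -0.0508 and VSP2 to -0.0304. Without single replicates GSR2 ranged from -0.14 to 0.0728, ALD1 from -0.0667 to 0.38 and VSP2 from -0.21 to 1.36. GSR2 was called with upper-quartile scaling (-0.24) and library totals (-0.43), FC1 at -1.33 and -1.51, and SOS1 at -0.37 and -0.56. Without scaling 0 endodermis and 2 iron regulator genes were called higher in leaf. The causes were not tested. Of gene and setting combinations, 4112 gave the same call for the 245 genes run and 16 could not be run because the gene was filtered out. Depth limits the restricted classes, where 0.1 CPM is about 3 reads.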

Other observations

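The leaf libraries of opt3-2 also carried transcripts of genes known from flowers and the shoot tip. All 8 genes of a flower and pollen list were higher in leaf, with a median log2 fold change of 4.06, against 38.4% of all tested genes. AG, the factor of stamen and carpel identity, was at 1.08, 1.32 and 0.535 CPM in leaf and 0.0271, 0 and 0 CPM in root, a ratio of 98.0 (17.6 to 3872) on 1 root read. AP1, a factor of floral meristems, was at 3.13, 3.36 and 1.51 CPM in leaf and 0.298, 0.0642 and 0.0618 CPM in root (log2 fold change 4.14 ± 0.53 SE, adjusted p = 1.58e-05, edgeR's quasi-likelihood test with Benjamini-Hochberg adjustment), and SEP3, which acts with it, at 1.84, 2.35 and 0.912 CPM in leaf and 0.108, 0.0321 and 0.0927 CPM in root (log2 fold change 4.35 ± 0.53 SE, adjusted p = 1.02e-05). Without root replicate 1 the log2 fold change of AP1 was 5.31. These levels are low beside those of leaf genes, and no leaf replicate overlapped a root replicate in any of the 3.

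STM, the factor that maintains the shoot meristem, was leaf-restricted, at 11.6, 14.3 and 10.5 CPM in leaf and 0, 0.0321 and 0.0309 CPM in root, and was picked after its values were seen. SEP2, of the same family as SEP3, was leaf-restricted at 3.78, 3.23 and 1.51 CPM in leaf and 0.0542, 0 and 0 CPM in root. The leaf samples of Columbia-0 held STM at a mean of 15.2 CPM and SEP2 at 2.90 CPM. Whether stem tips or buds were part of the leaf samples was not tested.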
